A study of Mus musculus with 6 samples.

Results

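Messenger RNA of 45 mouse genes for DNA replication and nucleotide supply was compared between cells exposed to a static magnetic field and untreated cells. The genes were chosen by name and by role, with earlier results of these data known. They fall in 7 classes: origin licensing (9 genes), activation of the helicase (5), polymerases and primase (8), the clamp, its loader, strand binding and strand joining (11), deoxynucleotide supply (6), control of the G1/S transition (3) and copying of chromatin (3). All 45 were found among the 23886 genes listed, and all 45 were among the 11114 genes tested, which had at least 1 FPKM (fragments divided by the length of the gene and by the library's total) in at least 3 of the 6 libraries.

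The cells were AML12, a hepatocyte line from the liver of a mouse carrying a transgene for human transforming growth factor alpha, which the cells of both groups share. The labels give SMF (static magnetic field) as the treatment of 3 libraries, SMF 1, SMF 2 and SMF 3, and no treatment for 3 others, Control 2, Control 3 and Control 4; the series calls the cells wild type. Not given in the sources used here are the field's strength, the length of exposure and the density and passage of the cells. Nothing states that the 3 libraries of a group came from separate cultures, so the p-values measure the spread between these samples, which may be technical.

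Before a cell divides, its genome must be copied exactly once. In the G1 phase, origins are licensed by loading a ring of MCM proteins. At entry into S phase, the ring is turned into an active helicase, and polymerases, clamps and ligases then build the new strands from deoxynucleotides that ribonucleotide reductase makes from ribonucleotides. Many of these genes are known targets of E2F transcription factors and are transcribed at the G1/S boundary; hepatocytes of an adult liver seldom divide, whereas a cultured line divides continually.

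Library totals recovered from the files ran from 15514530 to 17969397 reads in SMF libraries and from 16601816 to 18200516 in Control libraries. The 45 genes had 111 to 6551 reads each per library. The hepatocyte transcripts Hnf4a and Alb stood at 91.4 ± 1.95 and 30.4 ± 2.80 FPKM in SMF libraries, against 91.6 ± 4.32 and 29.2 ± 4.33 FPKM in Control libraries (SD, n = 3 each), while Apoa1 was under 1 FPKM in all 6. The summed FPKM of the 8 hepatocyte markers was 3745 to 3952 in SMF libraries and 3567 to 3767 in Control libraries, most of it Krt8 and Krt18. Keratin transcripts of bile duct cells, Krt19 and Krt7, were also high, at 1110 ± 74.9 and 62.6 ± 2.59 FPKM in SMF libraries and 1063 ± 10.7 and 61.9 ± 2.66 FPKM in Control libraries, though Epcam was at or near 0. Markers of endothelial cells summed to at most 0.169 FPKM in SMF libraries and 0.107 FPKM in Control libraries, those of stellate cells or fibroblasts to at most 1.80 FPKM in SMF and 1.94 FPKM in Control libraries, with Col1a2 at 0 throughout, and those of macrophages or other blood cells to at most 2.46 FPKM in SMF and 3.10 FPKM in Control libraries.

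The sequences upstream of 4 of the genes are shown, the ribonucleotide reductase pair and Mcm5 and Mcm6 of the MCM ring. Each line holds the 250 bases before the gene's start, from RefSeq on build GRCm38.p6, 5′ to 3′ on the gene's own strand. The windows lie at chr12:24708004-24708253 (plus strand) for Rrm2, chr7:102441445-102441694 (plus) for Rrm1, chr8:75109259-75109508 (plus) for Mcm5 and chr1:128359706-128359955 (minus) for Mcm6. Capitals mark the CCAAT word, bound by NF-Y, and the E2F words TTTCCCGC, TTTCGCGC, TTTGCCGC and TTTGGCGC, each searched on both strands.
Rrm2: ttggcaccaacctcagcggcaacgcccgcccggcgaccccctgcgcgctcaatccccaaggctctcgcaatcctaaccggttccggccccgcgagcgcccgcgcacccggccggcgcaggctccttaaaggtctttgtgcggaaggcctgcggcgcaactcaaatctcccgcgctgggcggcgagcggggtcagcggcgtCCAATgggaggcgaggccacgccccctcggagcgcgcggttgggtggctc
Rrm1: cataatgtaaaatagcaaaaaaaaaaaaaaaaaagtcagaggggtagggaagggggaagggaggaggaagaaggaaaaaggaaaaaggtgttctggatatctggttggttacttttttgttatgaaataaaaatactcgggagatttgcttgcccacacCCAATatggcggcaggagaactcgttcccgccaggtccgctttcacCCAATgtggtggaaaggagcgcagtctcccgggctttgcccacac
Mcm5: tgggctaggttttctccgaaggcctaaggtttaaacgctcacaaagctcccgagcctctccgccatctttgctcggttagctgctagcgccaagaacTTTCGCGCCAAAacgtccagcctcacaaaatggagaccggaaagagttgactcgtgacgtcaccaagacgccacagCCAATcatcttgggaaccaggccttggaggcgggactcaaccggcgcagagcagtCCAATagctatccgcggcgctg
Mcm6: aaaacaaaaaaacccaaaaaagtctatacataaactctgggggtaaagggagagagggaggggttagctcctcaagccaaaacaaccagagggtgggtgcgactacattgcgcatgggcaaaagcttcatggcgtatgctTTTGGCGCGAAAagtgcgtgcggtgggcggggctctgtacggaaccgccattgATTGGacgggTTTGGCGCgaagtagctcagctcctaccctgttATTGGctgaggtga

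The Rrm2 window held 1 CCAAT word and no E2F word, and the Rrm1 window held 2 CCAAT words and no E2F word. The Mcm5 window held 2 overlapping E2F words, 1 on each strand, and 2 CCAAT words. The Mcm6 window held 3 E2F words, of which 2 overlap, and 2 CCAAT words. Of the other ring subunits, Mcm7 held an E2F word, Mcm2 and Mcm3 held none, and Mcm4 had no entry. Of the 36 genes of the set with an entry in the promoter table, 8 (22.2%) held an E2F word, against 2.16% of 27025 genes, and 21 (58.3%) held CCAAT, against 37.5%. The word TTTGAA, known from genes of late cell cycle phases, was in 5 (13.9%), against 18.3% of all genes. The median difference of log2(FPKM + 1), SMF minus Control, was -0.03 over the 8 genes with an E2F word and -0.04 over the 28 without one. A word match describes the letters in the window and is not a binding site. Mcm4, Gmnn, Pole, Gins1, Gins2, Ccne2, Prim2, Rfc2 and Rrm2b were not matched.

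As a whole, transcripts of the replication genes stood at nearly the same level in SMF and Control libraries. By limma on log2(FPKM + 1), the scale of every log2 difference given here unless limma-voom or an FPKM ratio is named, none of the 45 genes passed an adjusted p of 0.05. Nor did any of the 11114 genes tested (0%), the smallest adjusted p being 0.103. At an unadjusted p under 0.05 there were 9 of the 45, 7 lower and 2 higher in SMF libraries, against 1998 of all tested genes (18%). In bulk RNA, fewer cells in S phase and less RNA per cell cannot be told apart.

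The differences were small and leaned towards lower levels in SMF cells. Of the 45 log2 differences, SMF minus Control, 14 were above 0 and 31 below, with a median of -0.04 and a range of -0.27 to 0.11. Over all tested genes the median was -0.01 and 46.7% were above 0. Corrected for GC content and length, 17 of the 45 were above 0 and 28 below, with a median of -0.03. With that correction the median over all tested genes was 0.0, and 50.2% were above 0. On the log2(FPKM + 1) scale, the 95% interval by limma lay within a change of 1.2-fold in either direction for 37 of the 45 genes. This scale understates changes of low genes. The 8 with wider or shifted intervals were Mcm4, Rrm2, Rrm2b, Gins3, Pole2, Rfc4, Ccne1 and Ccne2. By limma-voom the count within the bound was 35, with Gins1 and Prim2 outside as well. The coefficient of variation between the libraries of a group had a median of 4.59% in SMF and 4.41% in Control, against 2.76% from counting error.

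A second test on the reads behind the FPKM values, limma-voom, called 503 of 11114 genes (4.53%), 278 higher and 225 lower (2.5% and 2.02%). Among the 45 genes it called 2 (4.44%), Rrm2 and Mcm4, both lower in SMF libraries. That share is close to the share over all genes. By plain ranges, SMF and Control libraries did not overlap for 11 of the 45 (24.4%), 10 lower and 1 higher in SMF, against 23.7% of all tested genes (12.7% lower and 11% higher). The 10 were Mcm4, Gins1, Prim2, Rpa1, Lig1, Rrm2, Tk1, Dut, Ccne1 and Ccne2, and the 1 higher was Rfc2.

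**Figure D1:**
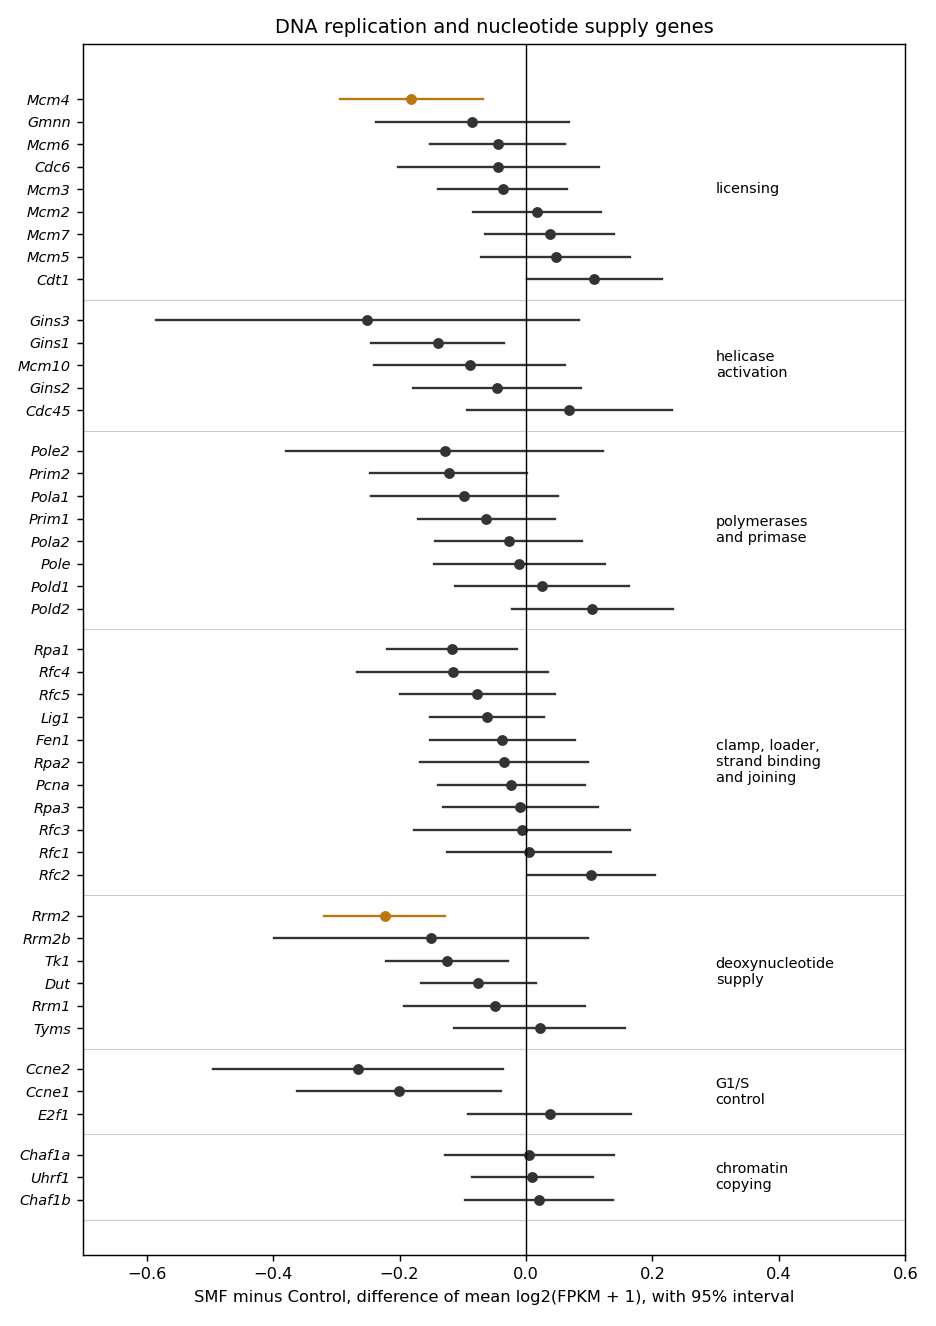
Difference of mean log2(FPKM + 1), SMF minus Control, for each of the 45 genes, grouped by class and ordered within a class (points, with 95% intervals from limma, n = 3 libraries per group). Of the points, 31 lie below 0 and 14 above. Rrm2 and Mcm4, in orange, are the 2 that passed limma-voom; no gene passed limma over all 11114 genes.

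Origin licensing loads the MCM2 to MCM7 ring: Cdc6 and Cdt1 bring it to the origin, and geminin (Gmnn) binds Cdt1 and blocks reloading. Of the 9 licensing genes, 4 lay above 0 and 5 below (median -0.04), and Mcm4 alone passed limma-voom. Corrected for GC content and gene length, the class median was -0.006. Mcm4 (ENSMUSG00000022673), a ring subunit, had 28.7, 30.4 and 28.9 FPKM in SMF 1, 2 and 3, against 31.3, 34.4 and 34.6 FPKM in Control 2, 3 and 4. Every SMF library lay below every Control library, by 0.92 FPKM at the nearest pair. The group means were 29.3 ± 0.914 FPKM in SMF and 33.4 ± 1.83 FPKM in Control (SD, n = 3 each), an FPKM ratio of 0.878. The log2 difference was -0.18 (SE 0.05, 95% interval -0.29 to -0.07; limma adjusted p = 0.168), and by limma-voom it was -0.18 (adjusted p = 0.049). That call was lost after a correction for GC content and gene length (-0.13, limma-voom adjusted p = 0.25) and without SMF 1, SMF 3, Control 3 or Control 4 (adjusted p = 0.171, 0.203, 0.126 and 0.236). A processed pseudogene in the annotation, Gm9577, resembles Mcm4 over 2569 bases at an identity of 90.1%. How reads that fit both were placed is not known.

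The other ring subunits did not share the position of Mcm4. Mcm7, the most abundant of the licensing transcripts, had 84.5, 84.3 and 79.4 FPKM in SMF libraries and 76.7, 81.3 and 83.8 FPKM in Control libraries. These ranges overlapped, and the log2 difference was 0.04, turning to -0.01 after quantile normalization. Mcm2, Mcm3, Mcm5 and Mcm6 had log2 differences of 0.02, -0.04, 0.05 and -0.04, with SMF and Control libraries overlapping for each. As a share of the summed FPKM of the 6 ring subunits, Mcm4 held 9.23, 9.88 and 9.89% in SMF libraries and 10.6, 11.0 and 11.2% in Control libraries. The share of Mcm4 was thus lower in each SMF library, while that of Mcm7 was 27.2, 27.4 and 27.2% in SMF libraries and 26.0, 26.0 and 27.1% in Control libraries. The share of Mcm3 was also lower in each SMF library, by less. It was 15.3, 15.5 and 15.4% in SMF libraries and 15.5, 15.6 and 16.0% in Control libraries, with SMF 2 and Control 2 nearly equal. The ring's subunits are present in equal numbers in the protein complex, and their transcripts here ranged from 29.3 FPKM for Mcm4 to 82.7 FPKM for Mcm7 in SMF cells and from 33.4 to 80.6 FPKM in Control cells.

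**Figure D2:**
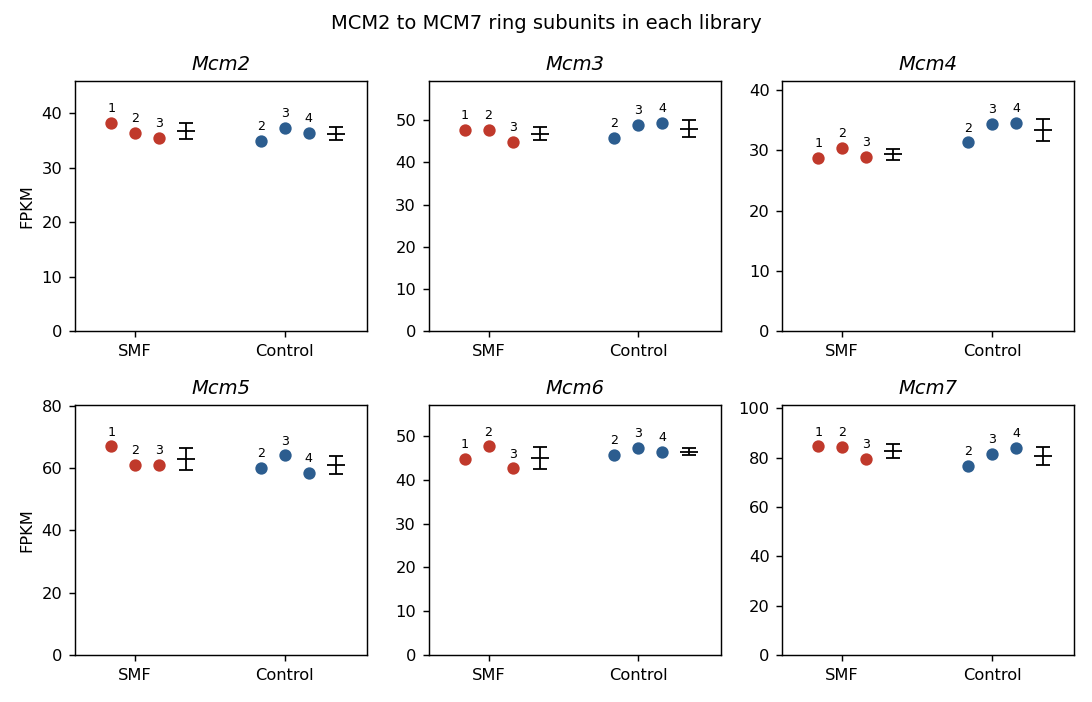
FPKM of the 6 MCM ring subunits in each library (numbered points, SMF in red on the left and Control in blue on the right), with the mean and SD of each group beside them; axes start at 0. Only Mcm4 has all 3 SMF libraries (28.7 to 30.4) below all 3 Control libraries (31.3 to 34.6) among the 6 subunits.

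Cdt1, the loader, and its inhibitor geminin stood on opposite sides of 0. Cdt1 had 35.1, 33.6 and 36.2 FPKM in SMF libraries and 31.8, 33.9 and 31.4 FPKM in Control libraries, a log2 difference of 0.11 (limma adjusted p = 0.271), with SMF 2 inside the Control range. Corrected for GC content and gene length, it was 0.03. Gmnn had 26.4, 26.3 and 25.3 FPKM in SMF libraries and 24.9, 30.3 and 27.9 FPKM in Control libraries (-0.08, adjusted p = 0.522), and Control 2 was the lowest of the 6. The Cdt1 to Gmnn FPKM ratio was 1.33, 1.28 and 1.43 in SMF libraries and 1.28, 1.12 and 1.12 in Control libraries, meeting at 1.28. Cdc6, the other loader, averaged 8.16 ± 0.394 FPKM in SMF and 8.45 ± 0.764 FPKM in Control.

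The helicase becomes active when Cdc45 and the GINS complex join the ring, with Mcm10 acting at that step. Of the 5 genes of this class, 1 lay above 0 and 4 below, with a median of -0.09, and none passed either test. The median was -0.07 when corrected for GC content and length. Gins1, a GINS subunit and the most abundant of the class, had 19.1, 20.8 and 20.6 FPKM in SMF libraries and 21.8, 22.8 and 22.4 FPKM in Control libraries. All SMF libraries were lower than all Control libraries. The log2 difference was -0.14 (SE 0.05, limma adjusted p = 0.202, limma-voom adjusted p = 0.329), or -0.16 after the correction. Gins3, another GINS subunit, was scarce and varied most of all 45 between SMF libraries, at 4.12, 2.95 and 2.49 FPKM, against 4.47, 3.35 and 3.99 FPKM in Control libraries. Its log2 difference of -0.25 had a 95% interval of -0.59 to 0.08, and its coefficient of variation was 26.4% in SMF and 14.3% in Control. Gins2 averaged 6.07 ± 0.261 FPKM in SMF and 6.30 ± 0.289 FPKM in Control, but 67.3% of its exon bases overlap Gse1 on the other strand. Cdc45 was at 11.3 ± 0.996 FPKM in SMF and 10.8 ± 0.620 FPKM in Control, and Mcm10 at 6.36 ± 0.497 FPKM in SMF and 6.82 ± 0.297 FPKM in Control.

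Synthesis starts with the polymerase alpha and primase complex (Pola1, Pola2, Prim1, Prim2) and goes on with polymerase epsilon (Pole, Pole2) on the leading strand and polymerase delta (Pold1, Pold2) on the lagging strand. Of the 8 genes, 2 lay above 0, both of polymerase delta, and 6 below (median -0.04). None passed either test, and the median was -0.01 when corrected for GC content and length. Pold2, the second subunit of polymerase delta, had 44.5, 43.1 and 39.6 FPKM in SMF libraries and 39.3, 41.4 and 37.4 FPKM in Control libraries, a log2 difference of 0.10 (limma adjusted p = 0.354). Ranges overlapped, and with values corrected for GC content and length the difference was 0.0007. Prim2, the large primase subunit, had 6.16, 6.02 and 5.73 FPKM in SMF libraries and 6.76, 6.61 and 6.39 FPKM in Control libraries. It was the one gene of the class whose groups did not overlap, at -0.12 (adjusted p = 0.284), or -0.05 after the correction. The catalytic subunits Pola1, Pole, Pold1 and Prim1 had log2 differences of -0.10, -0.01, 0.03 and -0.06, all with overlapping libraries, and Pole2 and Pola2 had -0.13 and -0.03.

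The sliding clamp PCNA holds polymerases on DNA, replication factor C (Rfc1 to Rfc5) loads it, replication protein A (Rpa1 to Rpa3) coats single strands, and Fen1 and Lig1 trim and join Okazaki fragments. This class of 11 genes had 2 above 0 and 9 below (median -0.04), with none past either test. Corrected for GC content and length, 5 were above 0 and 6 below, with a median of -0.06. Pcna, the most abundant of all 45, had 86.9, 92.5 and 82.4 FPKM in SMF libraries and 85.2, 88.3 and 92.3 FPKM in Control libraries. The groups covered almost the same range, with a log2 difference of -0.02 and a 95% interval of -0.14 to 0.09; it was 0.03 after the correction. A processed pseudogene, Pcna-ps2, is 99.2% identical to Pcna over 781 bases and was listed at 6.76 FPKM, so reads may be divided between the pair.

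Rfc2, a small loader subunit, was the only one of the 45 with every SMF library above every Control library, at 14.5, 14.0 and 14.8 FPKM in SMF and 13.5, 13.1 and 13.5 FPKM in Control. The log2 difference was 0.10 (SE 0.04, limma adjusted p = 0.268; limma-voom adjusted p = 0.197). It was 0.12 when corrected for GC content and length. The exons of Rfc2 overlap those of Lat2 on the other strand over 15.1% of their bases. The other loader subunits did not follow it: Rfc1, Rfc3, Rfc4 and Rfc5 had log2 differences of 0.005, -0.007, -0.12 and -0.08, all with overlapping libraries. Rpa1, the largest subunit of replication protein A, had 25.3, 27.8 and 25.9 FPKM in SMF libraries and 28.7, 28.1 and 29.0 FPKM in Control libraries. The nearest pair, SMF 2 and Control 3, differed by 0.38 FPKM, and the log2 difference was -0.12 (SE 0.04, limma adjusted p = 0.239). Its partners Rpa2 and Rpa3 had log2 differences of -0.04 and -0.009. Lig1, the ligase, averaged 25.9 ± 0.773 FPKM in SMF and 27.1 ± 0.375 FPKM in Control without overlap, a log2 difference of -0.06. After the same correction Lig1 was at -0.08 and Rpa1 at -0.09. Fen1 averaged 66.7 ± 3.06 FPKM in SMF and 68.5 ± 3.45 FPKM in Control, with 78.8% of its exon bases shared with the antisense gene Gm10143, itself at 0.745 FPKM.

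In deoxynucleotide supply, Rrm2 had the smallest p of the 45 genes. Ribonucleotide reductase pairs a large subunit, Rrm1, with a small subunit, which is Rrm2 in S phase or Rrm2b, a form known to be induced by p53 and used outside S phase. Rrm2 (ENSMUSG00000020649) had 61.3, 66.0 and 62.1 FPKM in SMF 1, 2 and 3, against 76.5, 72.6 and 72.5 FPKM in Control 2, 3 and 4. Every SMF library lay below every Control library, and the gap between the nearest pair was 6.56 FPKM. Means were 63.1 ± 2.47 FPKM in SMF and 73.9 ± 2.25 FPKM in Control (SD, n = 3 each), a ratio of 0.855.

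The log2 difference of Rrm2 was -0.22 (SE 0.04, 95% interval -0.32 to -0.13). By limma the adjusted p was 0.147, so the gene did not pass over all genes, and by limma-voom it was 0.00872. The limma-voom call was kept after correction for GC content and length (-0.20, limma-voom adjusted p = 0.0149). It was lost without SMF 1 (adjusted p = 0.05), SMF 3 (0.0712) or Control 4 (0.0529), with the log2 difference between -0.20 and -0.23 in those fits. Rrm2 had 2637 to 3158 reads in SMF libraries and 3422 to 3663 in Control libraries. Processed pseudogenes in the annotation resemble Rrm2 over 419 to 1006 bases, at an identity of 90.1 to 95.5%, and how reads that fit both were placed is not known.

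The partners of Rrm2 did not show the same separation. Rrm1 had 15.6, 17.4 and 15.0 FPKM in SMF libraries and 15.8, 17.3 and 16.6 FPKM in Control libraries, overlapping throughout, with a log2 difference of -0.05 (0.05 after the correction). The Rrm2 to Rrm1 FPKM ratio was 3.93, 3.78 and 4.15 in SMF libraries and 4.83, 4.20 and 4.37 in Control libraries. It was lower in every SMF library, with SMF 3 and Control 3 only 0.05 apart. Rrm2b, the least abundant of the 45, had 1.47, 1.93 and 1.54 FPKM in SMF libraries and 1.68, 1.97 and 2.14 FPKM in Control libraries (-0.15, 95% interval -0.40 to 0.10). Its libraries overlapped, but its FPKM ratio of 0.852 was near that of Rrm2 (0.855). The log2(FPKM + 1) scale understates changes of low genes. By limma-voom the difference of Rrm2b was -0.22 (adjusted p = 0.284), or -0.09 after correction for GC content and length.

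The other thymidine and uridine enzymes differed among themselves. Tk1, which salvages thymidine, had 20.7, 19.6 and 21.1 FPKM in SMF libraries and 22.6, 22.5 and 22.1 FPKM in Control libraries. Its groups did not overlap, and the log2 difference was -0.12 (SE 0.04, limma adjusted p = 0.208; limma-voom adjusted p = 0.163). Dut, which destroys dUTP, had 26.8, 26.9 and 28.2 FPKM in SMF libraries and 29.1, 29.0 and 28.3 FPKM in Control libraries, a log2 difference of -0.08, with SMF 3 and Control 4 only 0.05 FPKM apart. Tyms, which makes thymidylate from deoxyuridylate, was on the other side of 0 at 12.4 ± 0.886 FPKM in SMF and 12.2 ± 0.392 FPKM in Control. Over the class, 1 gene lay above 0 and 5 below, with a median of -0.10. Corrected for GC content and length, 2 lay above 0 and 4 below, with a median of -0.07. With that correction Tk1 was at -0.15 and Dut at -0.11.

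**Figure D3:**
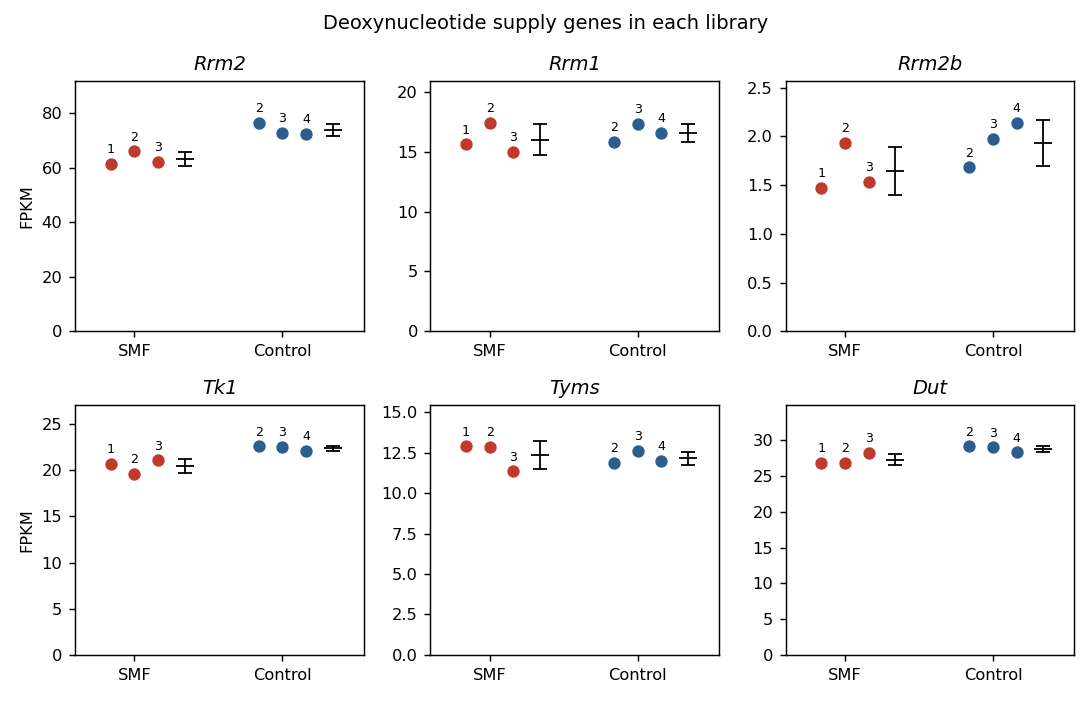
FPKM of the 6 deoxynucleotide supply genes in each library (numbered points, SMF in red on the left and Control in blue on the right), with the mean and SD of each group beside them; axes start at 0. The SMF libraries of Rrm2 lie at 61.3 to 66.0 and the Control libraries at 72.5 to 76.5, whereas those of Rrm1 overlap.

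Entry into S phase is driven by cyclin E, encoded by Ccne1 and Ccne2, with its kinase Cdk2, and by the transcription factor E2f1. Both cyclin E genes were scarce, with 111 to 186 reads per library. Ccne1 had 2.69, 2.46 and 2.59 FPKM in SMF libraries and 3.01, 3.18 and 3.15 FPKM in Control libraries. Ccne2 had 2.18, 2.42 and 2.13 FPKM in SMF libraries and 3.21, 2.42 and 3.11 FPKM in Control libraries. All SMF libraries of Ccne1 were below all Control libraries, whereas SMF 2 and Control 3 of Ccne2 differed by 0.003 FPKM. The FPKM ratios were 0.828 for Ccne1 and 0.770 for Ccne2, and on the log2(FPKM + 1) scale, which understates changes of low genes, the differences were -0.20 (SE 0.07, limma adjusted p = 0.213) and -0.27 (SE 0.10, adjusted p = 0.233). By limma-voom they were -0.27 and -0.35 (adjusted p = 0.33 and 0.176). Ccne2 shares 17.4% of its exon bases with Ints8 on the other strand, and its log2 difference was -0.15 when corrected for GC content and length. That of Ccne1 was -0.23 with the same correction.

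E2f1 itself had 18.2, 16.5 and 16.9 FPKM in SMF libraries and 15.9, 17.8 and 16.5 FPKM in Control libraries. The groups overlapped almost wholly, with a log2 difference of 0.04 (95% interval -0.09 to 0.17), or -0.04 after the correction. The class median of -0.20 is thus the value of Ccne1, the middle one of the 3 genes. With the correction the class median was -0.15.

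Behind the fork, the histone chaperone CAF-1 (Chaf1a, Chaf1b) deposits histones on new DNA and Uhrf1 recognises half-methylated sites for the maintenance methylase. These 3 genes lay within 0.02 of 0 on the log2 scale. Uhrf1 had 49.5, 48.7 and 46.5 FPKM in SMF libraries and 46.2, 49.3 and 48.1 FPKM in Control libraries, and its log2 difference of 0.01 (95% interval -0.09 to 0.11) was below 0 after rescaling to TPM, which sets every library to the same total (-0.02), or quantile normalization (-0.03). Chaf1b had 15.8, 16.2 and 16.2 FPKM in SMF libraries and 14.8, 16.6 and 16.2 FPKM in Control libraries, a log2 difference of 0.02 (-0.01 after rescaling to TPM). With that rescaling the median over all tested genes was -0.04. Chaf1a averaged 12.4 ± 0.751 FPKM in SMF and 12.4 ± 0.610 FPKM in Control, with 52.5% of its exon bases shared with Ubxn6 on the other strand. For each of the 3 genes, SMF and Control libraries overlapped.

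Taken library by library, the whole set did not separate the groups. The median over the 45 genes of log2(FPKM + 1), relative to each gene's mean over the 6 libraries, was -0.01, 0.008 and -0.05 in SMF 1, 2 and 3, against -0.04, 0.04 and 0.05 in Control 2, 3 and 4. Control 4 held the highest value for 15 of the 45 genes and SMF 3 the lowest for 14; Control 2 held the lowest for 11, as many as SMF 1. Among the classes, the G1/S genes had medians of -0.06, -0.06 and -0.10 in SMF libraries and 0.06, 0.06 and 0.12 in Control libraries. The deoxynucleotide genes had -0.06, 0.008 and -0.11 in SMF libraries and 0.009, 0.08 and 0.04 in Control libraries, where SMF 2 and Control 2 nearly met. Corrected for GC content and length, the deoxynucleotide median was 0.001 in SMF 2 and -0.001 in Control 2, so the groups overlapped. In the other 5 classes the libraries of the groups overlapped, and the difference between classes was not tested.

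**Figure D4:**
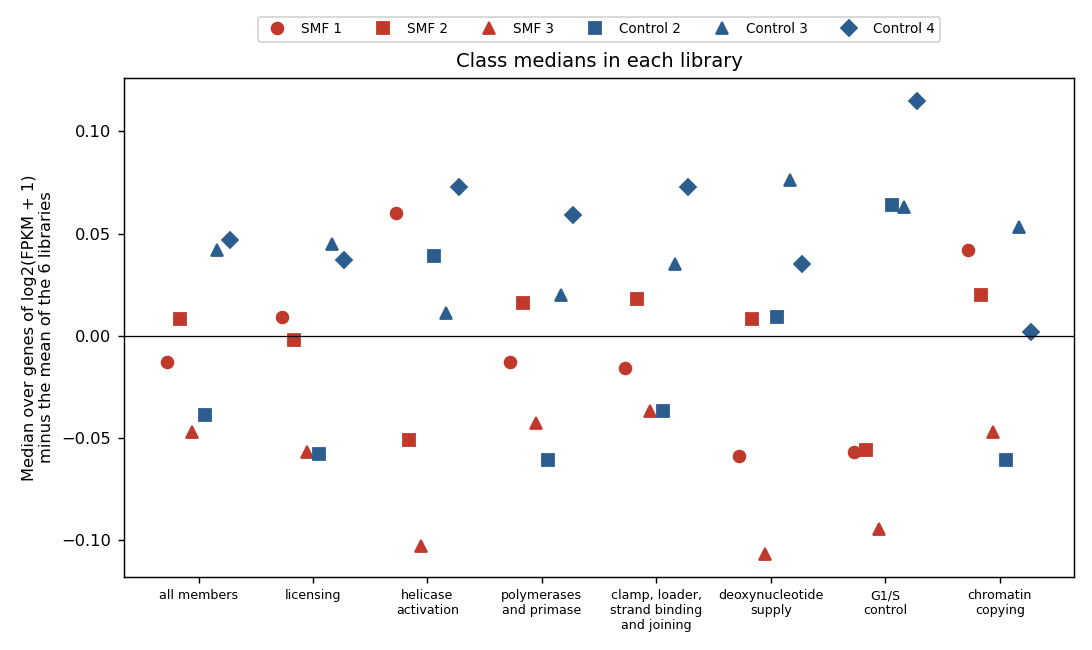
Median over the genes of each class of log2(FPKM + 1), each gene taken relative to its mean over the 6 libraries, for SMF 1 to 3 (red, left in each class) and Control 2 to 4 (blue, right). Over all 45 genes SMF 2 (0.008) lies above Control 2 (-0.04); the G1/S genes, 3 in number, have SMF libraries at -0.10 to -0.06 and Control libraries at 0.06 to 0.12.

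A wider list of 125 names held 124 replication and nucleotide genes outside the 45, since And1 is an alias of Wdhd1, also on the list. All 124 were among the genes listed, and 121 were tested. None passed limma, 26 had an unadjusted p under 0.05 (20 lower and 6 higher in SMF), where 18% of all tested genes did, and limma-voom called 9 (7.44%), 3 higher and 6 lower. Over all tested genes limma-voom called 4.53%, 2.5% higher and 2.02% lower, which is also the background of the counts per list given next, each of 3 genes or fewer. Their log2 differences were above 0 for 34 and below for 87, with a median of -0.05. When corrected for GC content and length, 47 were above 0 and 74 below, the median was -0.03, and limma-voom called 1 of them, Pfas.

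Factors that recognise and fire origins had 6 of 18 genes above 0 (median -0.09). Corrected for GC content and length, 8 of 18 were above 0 (median -0.005). Orc5, of the origin recognition complex, had 3.74, 3.86 and 3.97 FPKM in SMF libraries and 4.42, 4.53 and 4.43 FPKM in Control libraries (log2 difference -0.17, limma adjusted p = 0.212). Gins4, the remaining GINS subunit, had 43.7, 45.5 and 44.8 FPKM in SMF libraries and 38.8, 42.7 and 41.0 FPKM in Control libraries (0.13, adjusted p = 0.215), so it stood on the opposite side of Gins1. After the correction Orc5 was at -0.06 and Gins4 at 0.07. Fork and checkpoint genes had 3 of 13 above 0 (median -0.06), or 6 of 13 with the correction (median -0.025). In this list, Wdhd1, which links the helicase to polymerase alpha, had a log2 difference of -0.19 (limma adjusted p = 0.206). Clspn, a checkpoint mediator, had one of -0.17 (limma adjusted p = 0.218), and neither gene had overlap between groups.

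Other polymerase, loader and strand processing genes had 4 of 17 above 0 (median -0.10), and limma-voom called 2 (11.8%). Corrected for GC content and length, 7 of 17 were above 0 (median -0.04). Top2a, the topoisomerase that untangles finished chromosomes, had 42.9, 46.9 and 42.7 FPKM in SMF libraries and 49.7, 47.8 and 52.8 FPKM in Control libraries (-0.18, limma adjusted p = 0.178; limma-voom adjusted p = 0.0229). Rnaseh2c, of the enzyme that removes ribonucleotides from DNA, had 48.6, 43.5 and 44.9 FPKM in SMF libraries and 38.8, 42.4 and 35.2 FPKM in Control libraries (0.23, limma adjusted p = 0.184; limma-voom adjusted p = 0.0347). After the correction their limma-voom adjusted p was 0.574 and 0.397. Pole3, a small polymerase epsilon subunit, was at -0.18 (limma adjusted p = 0.183).

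Other deoxynucleotide and pyrimidine genes had 8 of 20 above 0 (median -0.03) with none called by either test. After correction for GC content and length it was again 8 of 20 (median -0.009). Cmpk1, a kinase that phosphorylates pyrimidine nucleoside monophosphates, had a log2 difference of -0.16 (limma adjusted p = 0.183). Purine synthesis genes had 4 of 14 above 0 (median -0.06), and limma-voom called 3 (21.4%). With the same correction 5 of 14 were above 0 (median -0.04). Aprt, which salvages adenine, had 171.4, 159.6 and 168.1 FPKM in SMF libraries and 130.9, 145.6 and 143.9 FPKM in Control libraries (0.25, limma adjusted p = 0.147; limma-voom adjusted p = 0.00383). Pfas, of the de novo pathway, had 8.13, 8.56 and 7.70 FPKM in SMF libraries and 9.86, 9.55 and 9.42 FPKM in Control libraries (-0.22, limma adjusted p = 0.161; limma-voom adjusted p = 0.0248). Adss, which makes adenylosuccinate on the way to AMP, was at -0.19 (limma adjusted p = 0.161; limma-voom adjusted p = 0.0234). After the correction the limma-voom adjusted p was 0.197 for Aprt, 0.0376 for Pfas and 0.362 for Adss.

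The E2F, pocket protein and G1/S kinase list had 9 of 27 above 0 (median -0.05), and limma-voom called 3 (11.1%). Corrected for GC content and length, it also had 9 of 27 above 0 (median -0.03). Ccna2, the cyclin of S phase and G2, had 29.0, 32.4 and 28.6 FPKM in SMF libraries and 34.6, 34.3 and 33.7 FPKM in Control libraries (-0.18, limma adjusted p = 0.171; limma-voom adjusted p = 0.0413). Tfdp2, a dimer partner of E2F factors, was at -0.19 (limma adjusted p = 0.203; limma-voom adjusted p = 0.0409). Cdkn2a, which encodes inhibitors of the cell cycle, had 91.6, 85.8 and 89.7 FPKM in SMF libraries and 80.1, 82.3 and 67.7 FPKM in Control libraries (0.22, limma adjusted p = 0.202; limma-voom adjusted p = 0.0349). Cdkn1b, an inhibitor of cyclin-dependent kinases, was at -0.16 (limma adjusted p = 0.172). After the correction the limma-voom adjusted p of Ccna2, Tfdp2 and Cdkn2a was 0.167, 0.482 and 0.618.

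Partners of histone and methylation copying had 0 of 12 genes above 0 (median -0.06), or 4 of 12 when corrected for GC content and length (median -0.04). Hells, a chromatin remodeller needed for DNA methylation, had 14.7, 18.2 and 16.3 FPKM in SMF libraries and 19.3, 19.9 and 22.8 FPKM in Control libraries. All SMF libraries were below all Control libraries. On the log2(FPKM + 1) scale the difference of -0.32 (SE 0.08) was the farthest from 0 among the 45 genes and the 121. By limma-voom the scarce Ccne2 (-0.35) and Gins3 (-0.33) lay farther from 0 than Hells (-0.32). For Hells, limma gave an adjusted p of 0.164 and limma-voom one of 0.00541, or 0.0775 after the correction. Usp7, a deubiquitinase known to stabilise Uhrf1, was at -0.16 (limma adjusted p = 0.18).

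**Figure D5:**
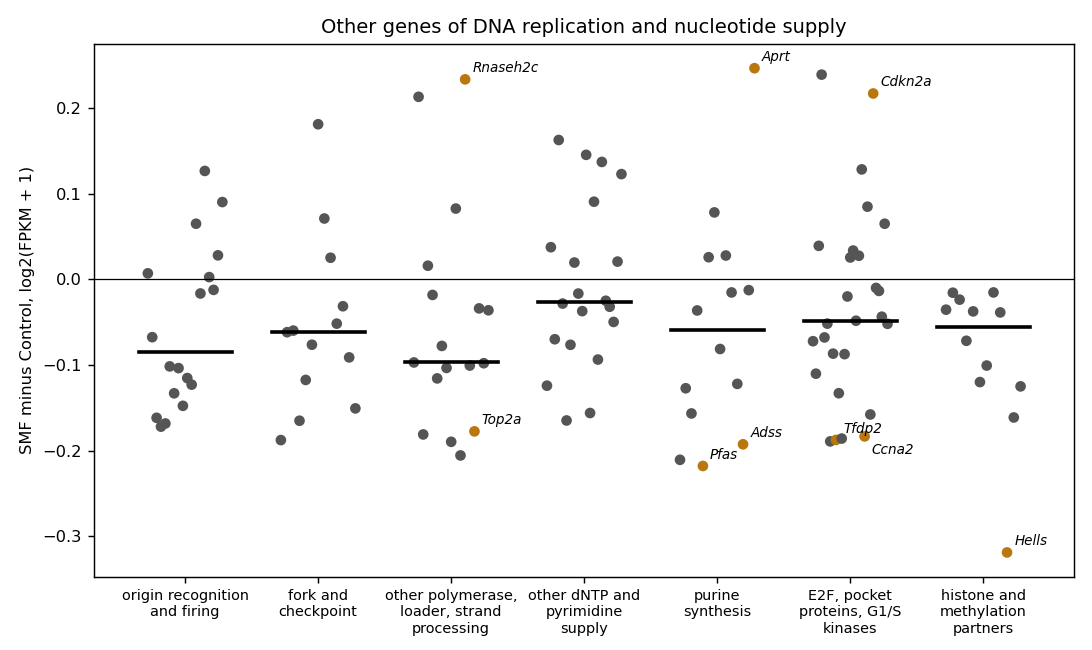
Difference of mean log2(FPKM + 1), SMF minus Control, for the 121 further genes tested, in 7 lists (points; bars mark the median of each list). The 9 genes that passed limma-voom are in orange and named, from Hells at -0.32 to Aprt at 0.25; none passed limma over all 11114 genes.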

How the data were processed

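Poly(A) RNA of 6 AML12 libraries was sequenced. The authors deposited FPKM per gene and library; per the submitters' processing notes, Bowtie2 2.2.3 and HISAT2 2.1.0 were used on GRCm39, in roles they do not state. How reads were counted, by strand or not, and where multiply mapped reads went were not given in the sources used here, so reads of overlapping genes and near-identical copies cannot be told apart. GENCODE M21 (GRCm38) gave symbols for 23521 of 23886 genes, lengths and GC content. The 45 genes and the further lists were chosen with earlier results of these data known.

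FPKM values were whole multiples of 1 read: with M21 lengths, reads came out whole (within 0.02) for 21323 of 22004 genes above 0 (96.91%), and for the other 681 after a search for the length. A single read in 1 kb was worth 0.0549 to 0.0645 FPKM.

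The main test, limma 3.58.1 in R 4.3.3 with its trended variance option, compared log2(FPKM + 1) in SMF against Control, 3 libraries each, two-sided, with Benjamini-Hochberg adjustment over 11114 genes. A count test, limma-voom on the recovered reads, called 503 genes; its GC content and length correction, replicate block and fits without single libraries were chosen after seeing the data. GC content and length were corrected within each library by loess (span 0.3; 99.47% of genes had both). The rule named, per class, the 2 genes with the smallest p, that with the highest mean, and Rrm2, Rrm2b, E2f1 and Pcna; per further list, the passing genes or the 2 smallest p. A gene that this rule names is not reported here. An exact permutation test of 3 against 3 libraries cannot go below 0.1 and was not used. Figures used matplotlib 3.10.9. Intervals cover the spread between libraries.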

Additional observations from a re-analysis of the deposited data

How the results depend on the processing

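By limma, the count over all genes, 0, became 8 with a filter at 5 FPKM, 19 with a replicate block, 4 with the block and the correction for GC content and length, 503 by limma-voom, and 0 to 3 without single libraries; among the 45 genes it stayed 0 in each limma fit. Limma-voom gave 2 of the 45, and 9 of the further genes. Its counts of 503, 2 and 9 became 85, 1 and 1 with the correction, 63, 1 and 1 with a replicate block, and 31 to 1429, 0 to 3 and 1 to 20 without single libraries: over all genes 68 without SMF 1, 1429 without SMF 2, 92 without SMF 3, 193 without Control 2 and 31 without Control 4; of the further genes 2, 20, 2, 4 and 1 in the same order. Only numbers 2 and 3 occur in both groups, so a fit with the replicate block compares SMF 2 and 3 with Control 2 and 3 alone. Same-numbered libraries deviated together little (r = 0.06 and 0.05 over 11114 genes, which are not independent replicates). Differently numbered libraries gave r from -0.15 to 0.11, so these values show no sign of pairing but cannot exclude it. Under the block Rrm2 passed limma-voom (adjusted p = 0.0377) and Mcm4 did not (adjusted p = 0.349).

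The median log2 difference of the 45 genes stayed below 0 in every fit, at -0.069 to -0.025 without single libraries. Without single libraries the licensing median ran from -0.057 to 0.018, above 0 without Control 4, and by TPM it was -0.071. By TPM the median over all tested genes also moved down, to -0.043 with 36.9% above 0, against -0.01 and 46.7% in the main fit. The deoxynucleotide median was -0.044 with block and correction. The G1/S median was -0.263 and -0.098 with pseudocounts of 0.1 and 5, 0.038 with a filter at 5 FPKM (E2f1 alone), -0.277 by TPM, -0.266 by limma-voom, -0.154 with the correction and -0.159 with block and correction; the pseudocount acts on low genes by construction, and the cause of the others was not tested.

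Signs turned for genes near 0. Mcm7 was -0.012 after quantile normalization. Pcna was 0.008 with the block, 0.030 with the correction, 0.025 with both and -0.066 to 0.017 without single libraries. With block and correction Rrm2b was 0.017 and Pold2 -0.030. Uhrf1 was -0.024 by TPM, -0.030 by quantile normalization, -0.005 with the block, -0.015 with the correction, -0.018 with both and -0.015 to 0.036 without single libraries. E2f1 was -0.010 with the block, -0.039 with the correction, -0.056 with both and -0.002 to 0.079 without single libraries. Chaf1b was -0.011 by TPM and -0.025 to 0.053 without single libraries.

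Depth limits the scarce genes: counting error alone gives a coefficient of variation of 8.78% for Ccne1, 8.06% for Ccne2 and 7.82% for Gins3.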
